A study of Rattus norvegicus with 18 samples.

Results

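The 35 genes described here carry cells through DNA replication and mitosis, and their transcripts were followed in rat blood after procainamide. They were taken as a list of symbols, and a probe was assigned to a symbol when its accession matched that gene in RefSeq. Of the 35 genes, 32 had such a probe, 14 of the 15 replication members and 18 of the 20 mitosis members. Top2a, Bub1b and Mcm5 were not matched. All 32 matched members passed the filter on dim probes, which asked for a Cy5 signal well above background on 4 arrays or more, and the probe that stood for each gene was well above background on all 18. They are 32 of the 13601 named genes tested.

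The study compared male rats of the Brown Norway (BN) and Sprague Dawley (SD) strains given sterile water or 40 mg/kg of procainamide, a drug for heart rhythm disorders that can cause a lupus-like illness. Blood from the venous sinus of the eye gave 4 control and 4 treated samples of BN and 5 of each of SD, every sample on an Agilent array with 2 colours. The values below are log2 ratios of Cy5, which carried the sample, over Cy3, which by the labels carried control replicate 1 of the same strain on every array. The labels give neither the animals' age nor the length of treatment, and nothing in them ties arrays to different animals, so the p-values reflect only the spread from array to array, which may be technical. Whole blood holds many cell types, so more dividing cells and more message per cell cannot be told apart in these values.

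Before a cell divides it copies its genome once. The MCM proteins form the helicase that is loaded at replication origins by Cdc6 and unwinds DNA, Gins2 is part of the active helicase complex, Prim1 makes the primers and Pcna clamps the polymerase to its template, while ribonucleotide reductase (Rrm1 and Rrm2), thymidylate synthase (Tyms) and thymidine kinase (Tk1) supply nucleotides and cyclin E (Ccne1) drives entry into S phase. Cyclins A and B (Ccna2, Ccnb1, Ccnb2) with Cdk1 then take the cell into mitosis, where kinases, motors and the spindle checkpoint divide the chromosomes and Cdc20 activates the complex that ends the division. Most circulating white cells rest outside the cycle, so in blood these transcripts are known chiefly from the minority of cells that divide and from young cells released by the marrow.

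Many of these genes are switched off in resting cells through a promoter element called the cell cycle genes homology region, whose core is TTTGAA, and others through E2F sites. The promoters of some members that the results below name are shown as the 250 bases before the start of the gene in RefSeq (build GRCr8), 5′ to 3′ along the gene. They are those of Mcm2 (chr4:122918095-122918344, minus strand), Kif11 (chr1:244536617-244536866, plus strand), Cdc20 (chr5:137255800-137256049, minus strand) and Birc5 (chr10:103571896-103572145, plus strand). Capitals mark every match, on either strand, to TTTGAA, to the NF-Y box CCAAT or to the E2F cores TTGGCGC and TTCCCGC.
Mcm2: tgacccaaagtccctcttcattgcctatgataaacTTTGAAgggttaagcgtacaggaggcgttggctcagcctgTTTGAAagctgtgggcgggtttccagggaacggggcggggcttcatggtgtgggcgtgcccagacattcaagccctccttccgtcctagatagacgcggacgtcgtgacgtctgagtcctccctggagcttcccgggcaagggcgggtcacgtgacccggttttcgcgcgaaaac
Kif11: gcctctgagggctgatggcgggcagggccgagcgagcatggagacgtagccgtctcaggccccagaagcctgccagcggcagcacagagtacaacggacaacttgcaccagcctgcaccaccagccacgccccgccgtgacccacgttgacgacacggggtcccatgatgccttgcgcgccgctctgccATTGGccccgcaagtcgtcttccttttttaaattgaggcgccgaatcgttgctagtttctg
Cdc20: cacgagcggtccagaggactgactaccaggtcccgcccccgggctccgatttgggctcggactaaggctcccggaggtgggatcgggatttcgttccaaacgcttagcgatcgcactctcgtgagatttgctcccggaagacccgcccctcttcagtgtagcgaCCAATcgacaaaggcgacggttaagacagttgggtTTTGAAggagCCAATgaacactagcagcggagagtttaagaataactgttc
Birc5: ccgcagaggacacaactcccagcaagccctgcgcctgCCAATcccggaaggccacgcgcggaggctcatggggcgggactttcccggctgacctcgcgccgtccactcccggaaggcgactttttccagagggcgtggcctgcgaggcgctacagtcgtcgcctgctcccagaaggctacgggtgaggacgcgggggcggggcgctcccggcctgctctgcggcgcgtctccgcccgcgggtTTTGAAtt

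In Cdc20 the TTTGAA began 51 bases before the start, between CCAAT boxes at 86 and 41 bases. Birc5 had TTTGAA 8 bases before the start and a CCAAT box at 213. Mcm2 had TTTGAA at 215 and 175 bases, and Kif11 had a single CCAAT box, on the opposite strand, at 61. RefSeq gave promoters for 28 of the 35 members, and none for Mcm4. The promoter of Mcm3, also called below, is not shown. It had CCAAT boxes at 142 (opposite strand), 97 and 57 bases and no TTTGAA or E2F core. TTTGAA was in 7 of 16 mitosis promoters (43.8%) and 1 of 12 replication promoters (8.33%), against 16.2% of all 33469 rat promoters. CCAAT was in 13 of 16 mitosis promoters and 7 of 12 replication promoters, against 34% of all. An E2F core was in 5 of 12 replication promoters (41.7%) and 2 of 16 mitosis promoters (12.5%), against 5% of all. No core contains another, but neighbouring matches can share letters, since TTGGCGC read on the opposite strand ends in the first 4 letters of CCAAT. A match describes these letters only and is not a measured binding site.

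The arrays lay on 3 slides. Slide 1 held all SD control arrays and SD procainamide 1 to 3, slide 2, scanned on another day, the BN controls with SD procainamide 4 and 5, and slide 3 the treated BN arrays. In BN, therefore, slide and treatment cannot be told apart, and only a term for scan day, carried by the SD procainamide arrays, could be fitted. The median Cy5 signal was 997 to 3187, or 27.8 to 50.7 times its background, no spot was saturated, and precision is limited by how many arrays there were. Defining transcripts of blood (Ptprc, Cd3e, Cd79b, Itgam, Hbb and Pf4) were well above background on all 18 arrays.

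The array labelled BN control 1 stood apart from the other BN controls in these genes. By its label both colours carried the same RNA, yet all 32 members had log2 ratios above 0 on it, from 0.17 (Mcm3) to 1.32 (Mki67), and all 32 lay above their values on each of the other 3 BN control arrays, where 29.5% of all named genes did so. Relative to the mean of those 3 arrays the median gap was 0.92 in replication members and 1.15 in mitosis members, and the widest were those of the cyclin Ccnb2 (2.28), the proliferation antigen Mki67 (2.11) and Tyms (1.96). The median log2 ratio of the replication members was 0.59 on BN control 1 and -0.42, -0.57 and -0.42 on BN control 2, 3 and 4, and that of the mitosis members 0.72 against -0.59, -0.37 and -0.51. SD control 1, labelled in the same way, had medians of -0.11 and -0.12, within the range of the other SD controls (-0.26 to 0.17). Values without BN control 1 are therefore given beside the BN results, the differences between strains and the correlations.

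Markers of red cell precursors moved with the members across arrays, though these values do not show whether dividing cells carried the marker transcripts. The list had 12 measured markers, and all 12 were above background on every array. Their median log2 ratio was 1.44 on BN control 1 and -1.87, -1.02 and -1.30 on the other BN controls, -1.81 to -0.12 on BN procainamide arrays, -0.67 to 0.24 on SD controls and -0.56 to 0.82 on SD procainamide arrays, the highest being SD procainamide 3. Their summed log2 Cy5 level ran from 146 to 178 in BN control, 147 to 166 in BN procainamide, 148 to 158 in SD control and 150.3 to 163 in SD procainamide. After the group means were taken off, Pearson's r with the median of the mitosis members was 0.91 over the 18 arrays (Spearman's rho 0.83), 0.81 without BN control 1 and 0.76 without the arrays farthest from the centre. With the replication members it was 0.85 (rho 0.75), 0.68 without BN control 1. These correlations describe arrays that share their normalization and references. Over the other marker lists r lay between -0.51 (B cells with mitosis members) and 0.54 (immature neutrophils with replication members). The part of the red cell precursor transcripts in the results below was not tested, except where their values are set beside them.

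**Figure D1:**
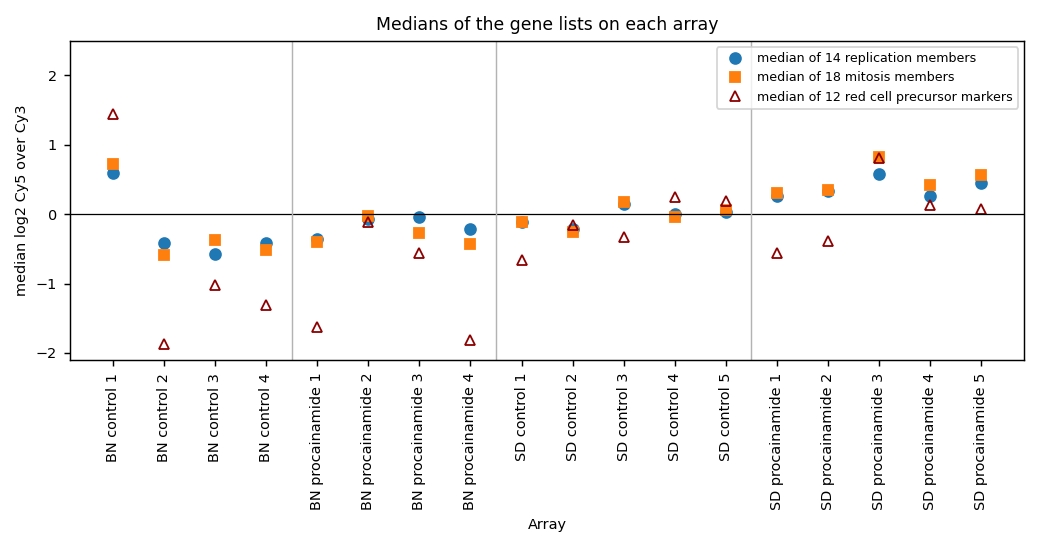
Median log2 Cy5 over Cy3 of the 14 replication members (circles), the 18 mitosis members (squares) and the 12 measured red cell precursor markers (triangles) on each of the 18 arrays, with vertical lines between groups. BN control 1 is high in all lists (0.59, 0.72 and 1.44). On SD procainamide 1 and 2 the member medians are high (0.26 to 0.35) and the red cell marker median is low (-0.56 and -0.38), though single markers such as Tfrc were not low there.

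**Figure D2:**
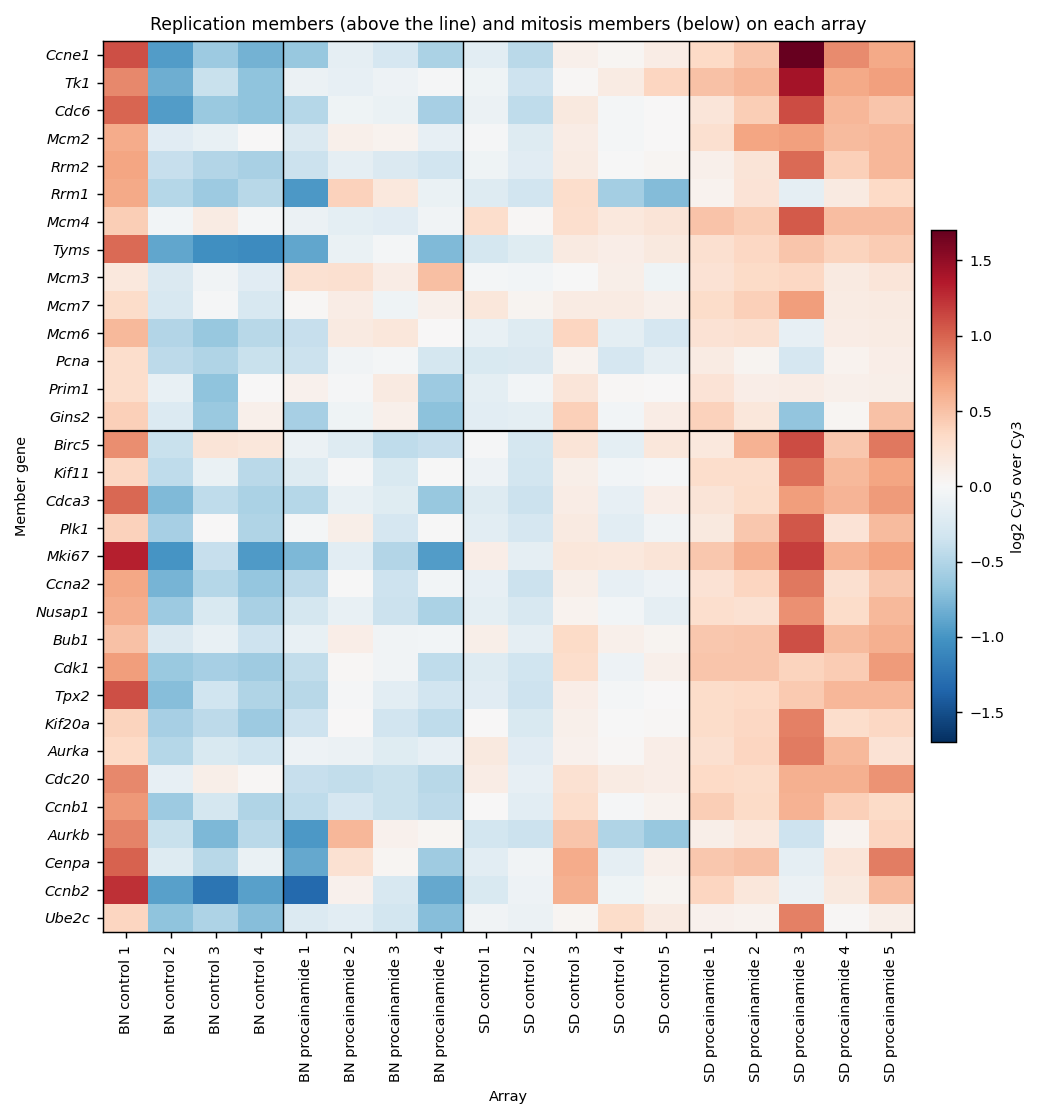
Heat map of log2 Cy5 over Cy3 (colour scale) for the 32 members (rows, replication members above the line) on the 18 arrays (columns, lines between groups). BN control 1 is above 0 in every row, and the SD procainamide arrays are above 0 in most rows.

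The first comparison asked how procainamide changed these transcripts in SD rats. All 14 replication members and all 18 mitosis members were on average higher in treated than in control arrays, where 48.4% of named genes had a difference above 0. In 20 of the 32 every treated array lay above every control array (7 of 14 replication and 13 of 18 mitosis members), against 4.37% of named genes, and in none did every treated array lie below every control array, against 4.54%. The differences were small, between 0.06 (Gins2) and 0.87 (Ccne1) on the log2 scale, with medians of 0.40 for replication and 0.54 for mitosis members, against -0.01 over all named genes. After adjustment over all 26424 probes 2 members rose, against 1.43% of named genes, and none fell, against 1.76%.

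The replication member that rose was Mcm2, a helicase subunit. On SD control 1 to 5 its log2 ratios were -0.02, -0.22, 0.12, -0.03 and 0.01, and on SD procainamide 1 to 5 they were 0.27, 0.67, 0.69, 0.54 and 0.56. All treated arrays thus lay above all controls, with SD procainamide 1 nearest to them. The rise was 1.49-fold (log2 0.57 ± 0.13 SE, limma adjusted p = 0.0297). The colours moved in opposite directions: treated minus control, Mcm2 differed by 0.31 in Cy5 and by -0.27 in Cy3, which by the labels held the same reference. Part of the rise in the ratio thus lay in Cy3 and not in the colour that held the samples. A second, dimmer probe of Mcm2 gave 0.33 ± 0.18 (limma adjusted p = 0.374), and with the probes averaged Mcm2 was not called.

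The mitosis member that rose was Kif11, the motor that pushes the spindle poles apart. It measured -0.09, -0.32, 0.10, -0.05 and -0.02 on SD control 1 to 5, and 0.30, 0.30, 0.94, 0.55 and 0.67 on SD procainamide 1 to 5. The groups did not overlap, and SD procainamide 3 was highest. The rise was 1.54-fold (log2 0.63 ± 0.15 SE, limma adjusted p = 0.0335).

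Other members of the helicase had differences in the same direction that missed the threshold. Mcm4 was at 0.30, 0.01, 0.28, 0.18 and 0.22 in controls and 0.49, 0.41, 1.05, 0.53 and 0.52 in treated arrays (0.40 ± 0.11, limma adjusted p = 0.0679). A dimmer probe of Mcm4 gave 0.22 ± 0.16 (limma adjusted p = 0.507). Mcm3 was at -0.07 to 0.09 in controls and 0.15 to 0.35 in treated arrays (0.27 ± 0.09, limma adjusted p = 0.110). A second probe of Mcm3 passed the threshold (0.50 ± 0.11, limma adjusted p = 0.0248), so the probes of this gene differ in the call. In Mcm6, Mcm7, Gins2 and Pcna the groups overlapped, with differences of 0.22, 0.22, 0.06 and 0.19. Among the genes of nucleotide supply, Tk1 had a difference of 0.75 ± 0.25, Rrm2 of 0.47 ± 0.20, Rrm1 of 0.44 ± 0.26 and Tyms of 0.40 ± 0.30, none of them called. Ccne1 and Cdc6, which act at the start of S phase, had differences of 0.87 ± 0.32 and 0.63 ± 0.27 with no overlap between groups, and the primase Prim1 had 0.13 ± 0.16 with overlap.

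In the mitosis members the largest difference was that of Birc5 (survivin, a subunit of the complex that corrects chromosome attachment). It measured -0.02, -0.30, 0.23, -0.16 and 0.19 in controls and 0.18, 0.59, 1.12, 0.46 and 0.90 in treated arrays, so SD procainamide 1 lay among the controls (0.66 ± 0.19, limma adjusted p = 0.0728). Bub1, a checkpoint kinase, was at -0.15 to 0.32 in controls and 0.46 to 1.09 in treated arrays (0.55 ± 0.15, limma adjusted p = 0.0554). A much dimmer probe of Bub1 gave 0.19 ± 0.11 (limma adjusted p = 0.420), with groups that overlapped. Mki67 was at 0.11, -0.15, 0.20, 0.18 and 0.22 in controls and 0.46, 0.62, 1.18, 0.59 and 0.68 in treated arrays. Its groups did not overlap, but its SE in the fit over all groups was wide (0.60 ± 0.32, limma adjusted p = 0.359). Cdk1 (0.55 ± 0.21) and Ccnb1 (0.38 ± 0.18) were without overlap too, with treated arrays at 0.38 to 0.72 and 0.32 to 0.59. The remaining members without overlap were the kinases Plk1 (0.60) and Aurka (0.43), the spindle proteins Nusap1 (0.56) and Tpx2 (0.54), the motor Kif20a (0.47), and Ccna2 (0.58), Cdca3 (0.61) and Cdc20 (0.43). Aurkb, Cenpa, Ccnb2 and Ube2c overlapped between groups, with differences of 0.35, 0.31, 0.18 and 0.15.

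**Figure D3:**
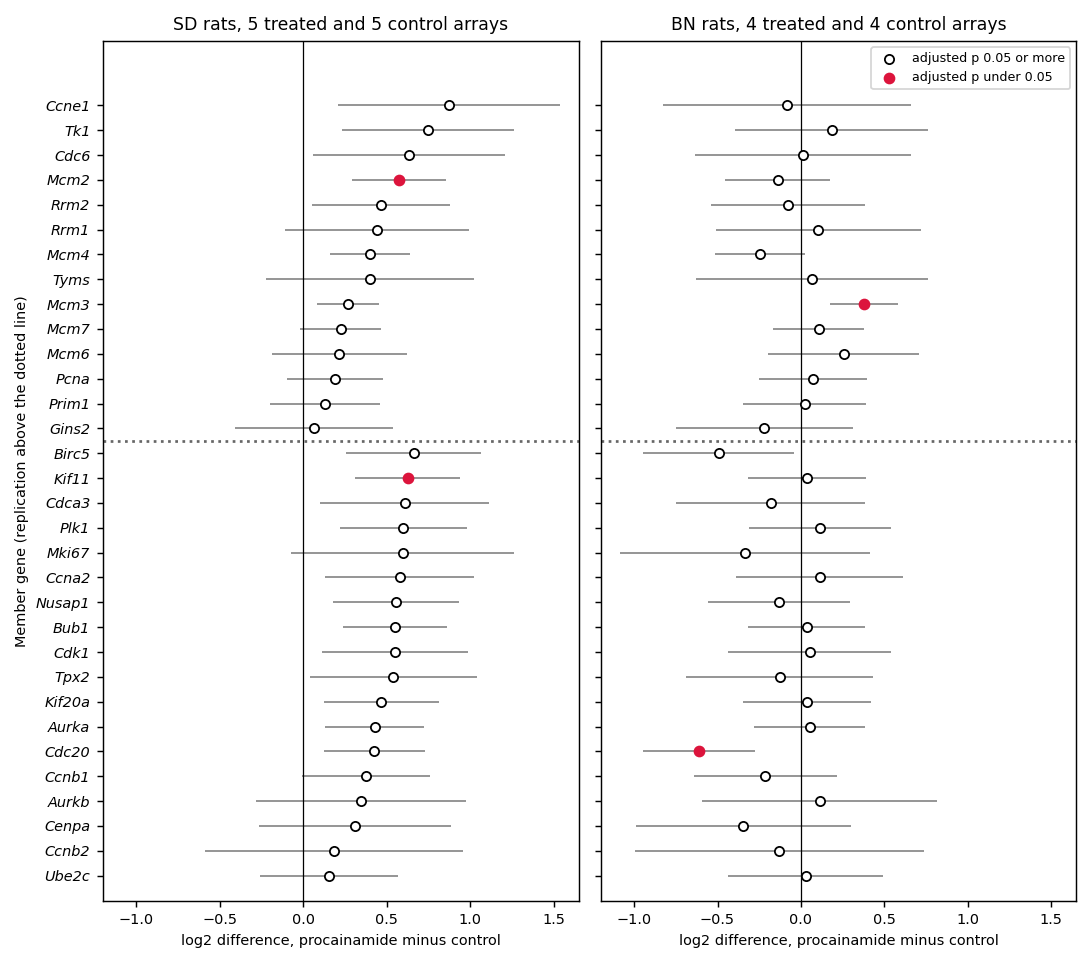
Log2 difference, procainamide minus control, for each member in SD rats (left) and BN rats (right), as points with 95% confidence intervals from limma, filled where the adjusted p was under 0.05. All 32 points lie above 0 in SD, where Mcm2 and Kif11 are filled, and 18 of 32 in BN, where Mcm3 and Cdc20 are filled.

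How many members passed the threshold depended on which arrays set the error. With the SD arrays alone 19 of 32 rose (6 replication and 13 mitosis members, against 2.87% of named genes), and with BN control 1 left out of the fit 18 rose (5 and 13, against 2.15%). The 2 sets shared 16 genes, among them Mcm2, Kif11, Cdk1, Ccnb1, Plk1, Birc5 and Cdc20. The differences themselves were the same in these fits, and the median SE of the members fell from 0.19 to 0.13. With arrays weighted by their quality 17 rose (against 4.91%), and without both self-hybridised arrays, BN control 1 and SD control 1, 9 rose (2 and 7, against 1.24%). Conversely, none passed once scan day was a term (medians 0.37 and 0.50), where 0.706% of named genes rose, so few calls could be looked for. None passed either within slide 1, with 5 control and 3 treated arrays (medians 0.37 and 0.50, 31 of 32 differences above 0), where 0.735% of named genes rose. There Mcm2 was at 0.57 ± 0.12 and Kif11 at 0.59 ± 0.16. At an unadjusted p under 0.05 the limma fits held 19 members over all arrays, 14 with scan day and 23 within slide 1.

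Single SD arrays also decided the calls. None was called by limma without SD control 1, 2, 4 or 5 or without SD procainamide 3, 4 or 5 (15 to 19 at an unadjusted p under 0.05). Without SD procainamide 2 only Kif11 passed, and without SD procainamide 1 Birc5 passed beside Mcm2 and Kif11. Over these fits the log2 difference of Mcm2 stayed between 0.52 and 0.64 and that of Kif11 between 0.53 and 0.69. Over all 34 alternatives the limma adjusted p ran from 0.00264 to 0.248 for Mcm2 and from 0.00456 to 0.208 for Kif11. In Cy5 alone, a level still normalized against Cy3 within arrays, all 32 differences were again above 0 (median 0.34). In Cy3, where the labels give the same RNA, 27 of 32 were below 0 (median -0.07), among them Mki67 (-0.24), Rrm1 (-0.21) and Tk1 (-0.20). In Cy5 alone Mcm4 (0.41), Birc5 (0.80) and Plk1 (0.63) passed in place of Mcm2 (0.31) and Kif11 (0.52).

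**Figure D4:**
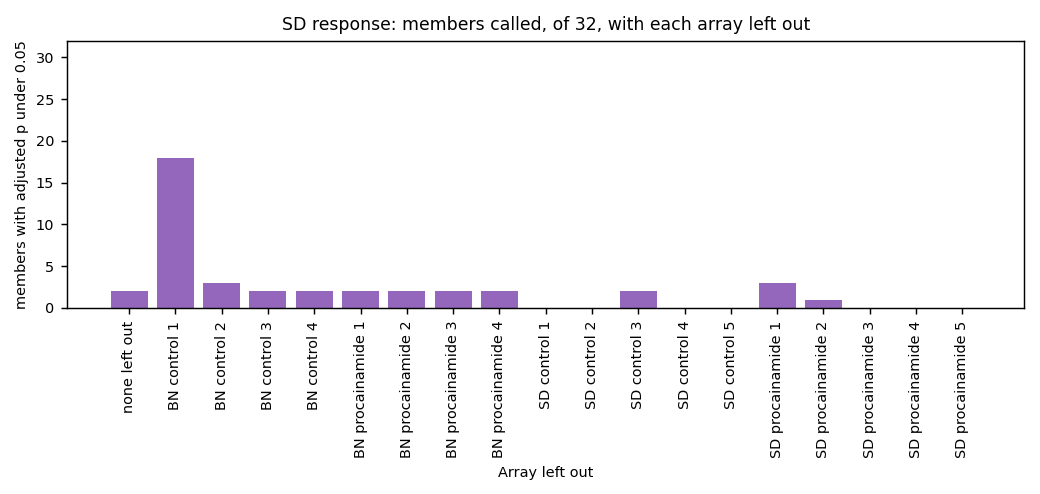
Number of the 32 members with adjusted p under 0.05 in the SD response (bars) with all arrays and with each array left out in turn. The bar is 2 with all arrays, 18 without BN control 1 and 0 without SD control 1, 2, 4 or 5 or SD procainamide 3, 4 or 5.

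On SD procainamide 3 the members parted. Its medians were 0.58 and 0.82, where the other treated arrays had 0.26 to 0.56, but 7 members lay below 0 on it, namely Mcm6, Gins2 (-0.67), Pcna, Rrm1, Ccnb2, Aurkb and Cenpa. On SD procainamide 1, 2, 4 and 5 all 32 were above 0. Without SD procainamide 3 the medians were 0.31 and 0.45, and 31 of 32 differences were above 0. SD procainamide 3 was also the treated SD array with the highest red cell precursor median (0.82) and the lowest B cell marker median (-0.66, against -0.16 to 0.04 elsewhere in SD). On SD procainamide 1 and 2 the red cell precursor medians were -0.56 and -0.38, below those of 4 of the 5 control arrays, while the member medians (0.26 to 0.35) exceeded those of all control arrays. That median covers markers that parted. In 1 of the 12, Tfrc, every treated SD array lay above every control array (0.18 to 1.35 against -0.28 to 0.15). In 1, Alas2, every treated array lay below (-1.30 to -0.49 against -0.47 to 0.15). The shares of named genes were 4.37% above and 4.54% below. Platelet markers were lower on treated SD arrays (medians -0.43, -0.52, -0.53, -0.34 and -0.16 on SD procainamide 1 to 5) than on most controls (-0.21, 0.14, 0.07, 0.19 and 0.19 on SD control 1 to 5), with 0 of 6 called by limma and 0 of 6 differences above 0. The median of the 6 defining blood transcripts was -0.26 to -0.14 on treated and -0.14 to -0.01 on control arrays. Activated T cell markers had medians of -0.13 to 0.22 on treated and -0.26 to 0.30 on control SD arrays. Of these 8 markers 2 were called higher, against 1.43% of named genes, and 0 lower. In 4 of the 8 the difference was above 0 (highest 2.17). The part of these shifts in the members' differences was not tested. In the SD response as a whole 0 of the 12 red cell precursor markers were called by limma, 7 of 12 differences were above 0, and they ran from -1.05 (Hbb) to 2.01 ± 1.09 (Rhag).

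Wider lists held other genes of the same processes. Of 34 further replication genes measured, 3 rose, against 1.43% of named genes, and 30 had a difference above 0 (median 0.28). They were Chaf1b, a histone chaperone of replication (0.82 ± 0.12, limma adjusted p = 0.00241), Gmnn, the geminin that blocks a second round of licensing (0.62), and Mcm10 (0.69). Of 34 further mitosis genes, 3 rose (against 1.43%) and 1 fell (against 1.76%), and 32 were above 0 (median 0.47). The kinetochore genes Spc25 (0.64) and Nuf2 (0.69) and Incenp (0.58), the partner of Birc5, rose. Cdc25b, a phosphatase that activates cyclin and Cdk1, fell by 1.07 on the log2 scale (limma adjusted p = 0.0116). None of 18 regulators of cell cycle entry (median 0.14) and none of 18 brakes of the cycle (median 0.01) passed in limma.

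In BN rats the same comparison gave differences on both sides of 0. Of the 32 members 18 had a difference above 0, against 47.5% of named genes, with a median of 0.04 for replication and -0.05 for mitosis members. The limma fit called 1 member higher, against 9% of named genes, and 1 lower, against 13.8%. In 2 of 32 all treated arrays lay below all controls (11.8% of named genes), and in none above them (8.18%).

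Cdc20, the activator of the anaphase-promoting complex, fell in the ratios. It measured 0.82, -0.14, 0.10 and 0.01 on BN control 1 to 4 and -0.39, -0.41, -0.37 and -0.48 on BN procainamide 1 to 4, so the groups did not overlap. The difference was -0.61 ± 0.16 SE (1.53-fold lower, limma adjusted p = 0.0114), and -0.40 ± 0.11 without BN control 1. The 2 colours did not share it: treated minus control, the level of Cdc20 differed by -0.03 in Cy5, which held the samples, and by 0.58 in Cy3, which by the labels held the same reference. In Cy5 alone it was therefore not called.

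Mcm3 rose in the ratios, from 0.17, -0.25, -0.06 and -0.19 on the BN controls to 0.26, 0.27, 0.13 and 0.51 on the treated arrays. The groups overlapped through BN control 1, and the rise was 1.30-fold (log2 0.38 ± 0.10, limma adjusted p = 0.0107). Its second probe gave 0.20 ± 0.13 (limma adjusted p = 0.283). In Cy5 alone Mcm3 had a difference of 0.16 and was not called. Over all 33 alternatives the limma adjusted p ran from 0.00282 to 0.563 for Mcm3 and from 0.00536 to 0.902 for Cdc20, and neither passed with scan day as a term, with array brightness as a term or with the BN arrays alone.

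The remaining members with the smallest p in BN were Birc5 (-0.49 ± 0.22, limma adjusted p = 0.112), Mcm4 (-0.25 ± 0.13, groups without overlap), Mcm6 (0.26 ± 0.21) and Cenpa (-0.35 ± 0.31). They were at -0.30 (Birc5), -0.15 (Mcm4), 0.53 (Mcm6) and -0.03 (Cenpa) without BN control 1. The dimmer probe of Mcm4 had the other sign over all arrays (0.12 ± 0.18, limma adjusted p = 0.672), and its groups overlapped. The intervals for the landmarks were wide. That of Mki67 ran from -1.08 to 0.41 around -0.34, that of Cdk1 from -0.44 to 0.54, that of Ccnb1 from -0.64 to 0.22, that of Pcna from -0.25 to 0.40, that of Tyms from -0.63 to 0.76 and that of Rrm2 from -0.54 to 0.38. Without BN control 1 the differences were 0.19 ± 0.19 for Mki67, 0.38 ± 0.14 for Cdk1, 0.09 ± 0.11 for Ccnb1, 0.26 ± 0.12 for Pcna, 0.56 ± 0.18 for Tyms and 0.21 ± 0.15 for Rrm2, so the values of Mki67, Ccnb1 and Rrm2 changed sign. Birc5 behaved unlike Cdc20 across the colours: in Cy5 alone it was called lower (-1.08, limma adjusted p = 0.000664, over all alternatives up to 0.903), while its Cy3 level also differed by -0.58.

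The signs depended on BN control 1. Against the other 3 BN controls 27 of 32 members were higher after treatment, with medians of 0.32 for replication and 0.22 for mitosis members. Mcm3 (0.46 ± 0.09), Mcm6 (0.53 ± 0.16) and Tyms (0.56 ± 0.18) rose, against 8.28% of named genes, and Cdc20 fell. Leaving out any other single array gave 2 calls, or 3 without BN control 2. With scan day as a term and BN control 1 left out none was called by limma, and 3 had an unadjusted p under 0.05. Red cell precursor markers had a median difference of -0.34 in BN with all arrays, and 1 of 12, Klf1, fell (-0.77). That median includes BN control 1, where these markers were at 1.44, against -1.87, -1.02 and -1.30 on BN control 2 to 4. Beside those other controls, BN procainamide 2 (-0.12) and 3 (-0.56) were higher. BN procainamide 1 (-1.62) and 4 (-1.81) lay within their range. Other markers moved too, where 9% of named genes rose and 13.8% fell. Activated T cell markers had medians of -0.03 to 0.58 on treated and -0.28 to -0.01 on control arrays (3 of 8 called higher), plasma cell markers 0.04 to 0.74 and -0.39 to 0.28 (3 of 7 higher) and platelet markers -0.90 to -0.08 and -0.21 to 0.31 (3 of 6 lower). BN procainamide 1 was low in immature neutrophil markers (-1.80, against 0.08 to 0.29 on the other treated arrays). The part of these markers in the members' differences was not tested.

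**Figure D5:**
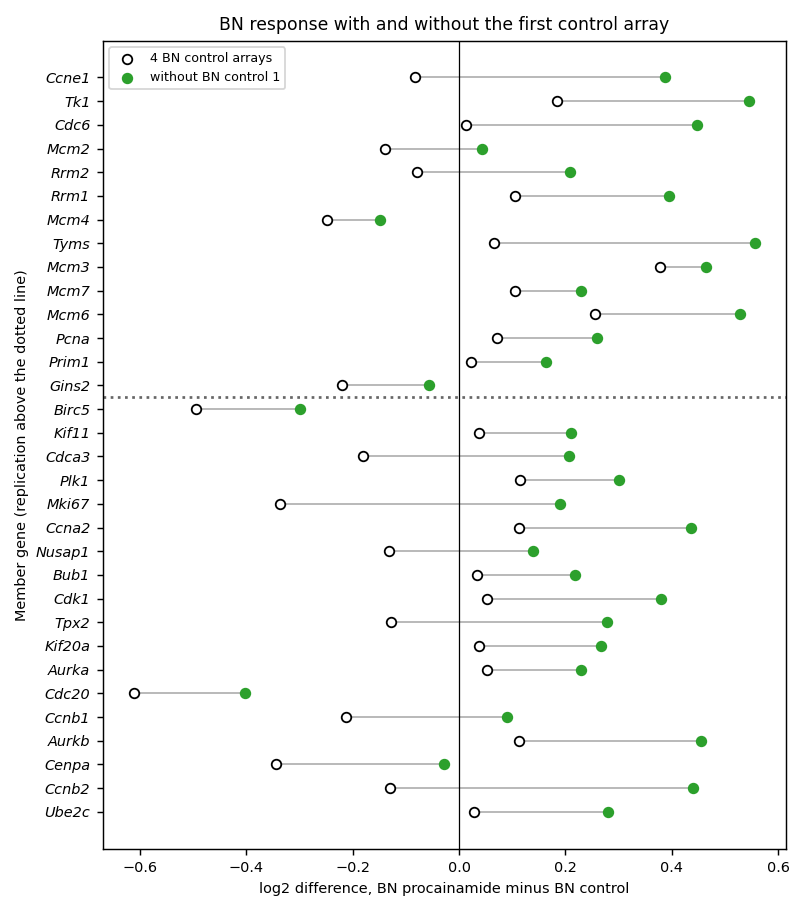
Log2 difference, BN procainamide minus BN control, for each member with all 4 control arrays (open circles) and without BN control 1 (filled circles). The points shift to the right, from 18 of 32 above 0 to 27 of 32.

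Among the wider lists in BN, none of 34 further replication genes passed in limma, and 1 of 34 further mitosis genes, the nuclear lamina gene Lmnb1, fell (-0.78 ± 0.19). The transcription factor E2f3 rose (0.39 ± 0.11) among 18 regulators of entry. Of 18 brakes, 1 rose (Gadd45b, a stress response gene, 0.59 ± 0.09) and 3 fell (Cdkn1c, -0.77, Ccng1, -0.98, and Cdkn2b, -0.31), shares near those of all named genes (9% rose and 13.8% fell).

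Whether the strains differed in their response was tested as the difference of the differences, BN minus SD, a comparison that uses the same control arrays as both responses. In 30 of 32 members the value lay below 0 (in 2 above, against 50.6% of named genes), with medians of -0.34 for replication and -0.55 for mitosis members. Lower values passed the threshold in 4 members, against 7.54% of named genes, and higher values in none, against 3.15%. The 4 were Cdc20 (-1.04 ± 0.21, limma adjusted p = 0.00574), Birc5 (-1.16 ± 0.29, 0.0162), Mcm4 (-0.65 ± 0.17, 0.0213) and Mcm2 (-0.71 ± 0.20, 0.0296). Next in order of p were Kif11 (-0.59 ± 0.23, limma adjusted p = 0.101) and, among replication members, Ccne1 (-0.95 ± 0.48, 0.207). For Mki67 the value was -0.93 ± 0.48 with an interval from -1.94 to 0.07. Without BN control 1 the values were -0.40 ± 0.25 for Mki67, -0.48 ± 0.32 for Ccne1 and -0.41 ± 0.19 for Kif11.

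Without BN control 1 the same 4 members were called, at -0.83 for Cdc20, -0.96 for Birc5, -0.55 for Mcm4 and -0.53 for Mcm2, but 9 of 32 values lay above 0 and the medians moved to -0.08 and -0.29. Mcm2 lost its call without BN procainamide 4, SD control 2 or SD procainamide 5 (limma adjusted p up to 0.0591 there, and 0.0174 to 0.835 over all 32 alternatives). In Cy5 alone Birc5 (-1.88) and Mcm4 (-0.60) passed, with Ccna2 and Plk1, while Cdc20 (-0.32) and Mcm2 (-0.15) did not. A second probe of Mcm4 gave -0.10 ± 0.24 (limma adjusted p = 0.817). No member passed with scan day or with array brightness as a term, where limma called 0 and 6 of all probes and 3 and 2 members had an unadjusted p under 0.05. In the wider lists, where 7.54% of named genes were lower and 3.15% higher, 5 of 34 further replication genes were lower, Chaf1b (-0.98), Gmnn (-0.71), Rfc3 (-0.50) and Cdc25a (-0.62) first among them, 1 of 34 further mitosis genes was lower (Lmnb1, -0.79), and 1 of 18 brakes was higher (Gadd45b, 0.54).

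Untreated blood of the strains was compared in log2 Cy5, since their references differed. All BN controls lay on slide 2 and all SD controls on slide 1, so strain, slide and scan day cannot be told apart in the controls alone, and the term for scan day rests on the SD procainamide arrays. With slide as a random block 4 members were called higher, and calls over all probes went from 10197 to 4572. On average 29 of 32 members were higher in BN controls than in SD controls, against 43.9% of named genes, and 22 of 32 once BN control 1 was left out. The difference passed the threshold as higher in 6 members, against 16.6% of named genes, a share near that of all genes, and as lower in none, against 20.2%. Of the 6, 5 were mitosis members. Birc5 measured 13.82, 13.14, 13.54 and 13.47 on BN control 1 to 4 and 12.12, 11.78, 12.34, 12.00 and 12.38 on SD control 1 to 5, a 2.58-fold difference with no overlap (log2 1.37 ± 0.19, limma adjusted p = 8.06e-05). Plk1 was 1.82-fold higher (0.87 ± 0.17), Cdca3 1.67-fold (0.74 ± 0.22), Ccna2 1.63-fold (0.70 ± 0.18), Kif20a 1.32-fold (0.40 ± 0.15) and the replication member Mcm4 1.30-fold (0.38 ± 0.09). Ccne1 (0.71 ± 0.30) and Cdc6 (0.61 ± 0.29) missed the threshold, as did Mki67 (0.40), Cdk1 (0.31), Ccnb1 (0.38), Rrm2 (0.23), Mcm2 (0.19), Pcna (0.10) and Tyms (0.08). Without BN control 1 the values were 0.29 for Ccne1, 0.18 for Cdc6, 0.07 for Mki67, 0.05 for Cdk1, 0.09 for Ccnb1, 0.04 for Rrm2, -0.02 for Mcm2, -0.03 for Pcna and -0.38 for Tyms.

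Without BN control 1 Kif20a lost its call (0.20) and Ube2c, which works with Cdc20 in ending mitosis, was called lower (-0.43), while Birc5 (1.26), Plk1 (0.72), Mcm4 (0.31), Ccna2 (0.49) and Cdca3 (0.42) stayed called. In that fit 16.9% of named genes were called higher. Without BN control 2 the count was 10, and with scan day as a term it was 0 by limma (5 at an unadjusted p under 0.05), with Birc5 at 0.74. The counts of 10 and 0 are given without the share of all named genes, so they are not read as results about the members. Markers of other blood cells differed in the same comparison: 6 of 9 markers of immature neutrophils (median 1.11) and 4 of 6 platelet markers (median 0.54) were higher in BN, against 16.6% of named genes, as was 1 of 12 red cell precursor markers (median 0.55). Their part in the members' differences was not tested. Among the regulators of entry 8 of 18 were higher in BN, again against 16.6%, led by Ccnd3 (0.87), Cdk2 (0.61), Tfdp1 (1.16) and E2f1 (0.54), and 0 were lower. Of 34 further mitosis genes 10 were higher and 1 lower (31 differences above 0). Of 34 further replication genes 6 were higher and 4 lower, and of 18 brakes 5 were higher and 2 lower. Over all named genes 16.6% were higher and 20.2% lower.

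Within the set the members did not move as a single block. After the group means were taken off, the median correlation between pairs over the 18 arrays was 0.80 in the 153 mitosis pairs and 0.58 in the 91 replication pairs. The lowest pairs were at 0.17 and -0.31. The medians were 0.58 and 0.23 without BN control 1, and the lowest pairs -0.47 and -0.68. Closest to the median of the other members were Cdc6 (r 0.97, and 0.93 without BN control 1), Mki67 (0.96 and 0.90) and Ccnb1 (0.95 and 0.87). Farthest were Gins2 (0.26, and -0.02 without BN control 1), Prim1 (0.45 and 0.20) and Mcm3 (0.57 and 0.27). All these values were computed with the group means taken off, and they describe arrays that share a reference within a strain.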

How the data were processed

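Cy5 and Cy3 median spot intensities and local backgrounds were the scanner output that the authors deposited, made with Feature Extraction 10.7.1.1 on array design 028279, per the file headers. The scanner's log10 ratios of dye-normalized signals were deposited in the same files, per the file headers. A table of log2 ratios was deposited as well, and its scale, centring, direction and probe filter are unstated. Its columns fell on lines of slope 1 against the scanner ratios (r at least 0.999), so it was read as log2 Cy5 over Cy3, not centred by gene. Its column medians were -0.0140 (BN control 1), 0.0135 (BN control 2), 0.00266 (BN control 3), 0.000872 (BN control 4), 0.0653 (BN procainamide 1), 0.0477 (BN procainamide 2), 0.0179 (BN procainamide 3), 0.0368 (BN procainamide 4), 0.0210 (SD control 1), 0.00510 (SD control 2), 0.0173 (SD control 3), 0.0121 (SD control 4), 0.0181 (SD control 5), 0.0282 (SD procainamide 1), 0.0367 (SD procainamide 2), 0.0575 (SD procainamide 3), 0.0180 (SD procainamide 4) and 0.0133 (SD procainamide 5).

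In R 4.3.3 with limma 3.58.1, intensities were corrected by normexp (offset 50) and loess within arrays, and unmarked spots of a probe were averaged. The 26424 probes whose Cy5 signal was well above background on 4 arrays or more were kept. A gene was represented by its brightest probe over both colours. Models with 4 group means (14 residual degrees of freedom, eBayes, 2-sided) were adjusted by Benjamini-Hochberg over all probes at 0.05. Untreated strains were compared in log2 Cy5 after Aquantile. Of 30367 probes, 18355 matched 1 symbol, 12012 none and 0 several. The members, lists, motifs and tests were chosen with earlier results of these data known. The rule for named genes covered every called member, the 3 replication and 3 mitosis members of smallest p in each comparison, landmark genes, and up to 4 called genes of each wider list. Members beyond that rule, and the markers Hbb, Rhag, Klf1, Tfrc and Alas2, were named after their values were seen. The scripts were tested on simulated data. Alternatives changed the background, signal source, filter, probe choice, arrays, slide, scan day, brightness and replicate terms. Promoters were searched with Python 3.11.15, and figures drawn with matplotlib 3.10.9.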

Additional observations from a re-analysis of the deposited data

Results flagged for a closer look

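Within groups of 4 or 5 arrays, the highest or lowest log2 ratio of each member and of the list medians was compared with the rest of its group. Of 136 groups of values looked at, 21 held a value set apart by Dixon's test, where chance sets apart about 1 in 20. The members are correlated on the same arrays, and the medians are of these members. The groups are therefore not independent, and the count cannot be read against that rate. BN control 1 gave 12 of the 21. On it Ccne1 was at 1.09, Cdc6 at 0.98, Mcm6 at 0.55, Pcna at 0.30, Rrm1 at 0.64, Rrm2 at 0.67, Tyms at 0.96, Cdk1 at 0.71, Ccnb2 at 1.25 and Kif20a at 0.38, and the medians of the replication and mitosis members were 0.59 and 0.72, all above the other 3 BN controls. SD procainamide 3 gave 6, with Mcm4 at 1.05, Tk1 at 1.42, Bub1 at 1.09, Kif20a at 0.86 and Ube2c at 0.86 above the other treated SD arrays and Pcna at -0.29 below them. The others were Cdk1 on SD procainamide 5 (0.72) and Mcm6 on SD control 3 (0.36), both high, and Kif20a on SD control 2 (-0.25), low.

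The response of 4 members differed between the strains by limma's test of the difference itself, BN minus SD, where 7.54% of named genes were lower. The values were -1.04 for Cdc20, -1.16 for Birc5, -0.65 for Mcm4 and -0.71 for Mcm2. In Cy5 alone Cdc20 (-0.32) and Mcm2 (-0.15) were not called, a second probe of Mcm4 gave -0.10, and none of the 4 passed with scan day or array brightness as a term (3 and 2 members at an unadjusted p under 0.05).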

How the results depend on the processing

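No called member changed sign in any alternative run, but list medians and counts of called members moved. Over the alternatives the SD medians ran from 0.27 to 0.43 (replication) and 0.41 to 0.59 (mitosis). Those of BN crossed 0, from -0.10 to 0.32 and -0.17 to 0.22, and without BN control 1 they went from 0.04 to 0.32 and from -0.05 to 0.22. Without it the medians of the difference between responses went from -0.34 to -0.08 and from -0.55 to -0.29, and those between untreated strains from 0.10 to -0.02 and from 0.39 to 0.13. In SD, where limma called 2, the count was 19 with the SD arrays alone, 17 with array weights and 9 without both self-hybridised arrays. It was 0 within slide 1 (against 0.735% of named genes higher) and with scan day (against 0.706%). With array brightness (16 at an unadjusted p under 0.05) or with the replicate block (18) it was 0 too, and it was 0 to 18 leaving out single arrays. With the lowest control and highest treated SD array left out, chosen after seeing the data, it was 0 (8 at an unadjusted p under 0.05). In BN, where 2 were called, it was 4 without both self-hybridised arrays, 1 in Cy5 alone, 1 with the replicate block, 0 with the BN arrays alone (2 at an unadjusted p under 0.05), with scan day (0) or with brightness (1), and 2 to 4 leaving out single arrays. In the difference between responses, where 4 were called, it was 2 with a gene's probes averaged, 0 with scan day or brightness, 3 with the replicate block, and 3 to 4 leaving out single arrays. Between untreated strains, where 6 were called, it was 4 with slide as a random block, 1 with brightness, 0 with scan day, 5 with the replicate block, and 5 to 10 leaving out single arrays. With scan day and BN control 1 left out, also added after seeing the data, the count was 0 in all 3 comparisons that use BN arrays, with 3 at an unadjusted p under 0.05 in each. Replicate numbers did not pair the arrays: correlations of deviations were -0.523 to 0.129, and no array was closest to its own number. Over all probes, the share of BN calls that were higher was 35.3%, and 46.6% in the deposited table. The cause of these changes was not tested.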
